A study of Mus musculus with 6 samples.

Results

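The D-type cyclins, their kinases, Myc and the cycle inhibitor p27 decide whether a resting cell starts to grow and re-enters the division cycle, and they were followed here in the injured mouse retina. The set was defined as all probe sets that the array's annotation assigns to Ccnd1, Ccnd2, Ccnd3, Cdk4, Cdk6, Cdkn1b, Myc, Pcna, Mki67 or Ccnb1 alone, which gave 24 of 45037 probe sets and 9 of 18193 genes. Of the 10 genes named, Ccnb1 was not analysed here. Total RNA of BALB/c retinas, an inbred albino strain, was measured on 6 Affymetrix arrays. The 3 light damaged arrays hold retinas of mice kept in the dark for 1 week, then exposed to white fluorescent light of 6000 lux for 6 h, and sampled 24 h later. The 3 dark adapted arrays hold retinas of mice that were likewise kept in the dark for 1 week, without that light. No genetic change is named in the labels, which give neither the age of the mice nor whether an array holds 1 animal or a pool, and the p-values can therefore reflect technical spread among the arrays alone. When after the dark period the dark adapted retinas were taken is not stated.

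In a dividing cell, growth signals raise the D cyclins encoded by Ccnd1, Ccnd2 and Ccnd3, which bind the kinases Cdk4 and Cdk6 and phosphorylate the retinoblastoma protein, so that E2F factors can switch on the genes of DNA synthesis. Myc is a transcription factor of cell growth and ribosome production, and p27, encoded by Cdkn1b, inhibits cyclin-dependent kinases and holds cells out of the cycle. Pcna is the sliding clamp of DNA polymerases and also serves in DNA repair, Mki67 encodes the Ki-67 antigen of cycling cells, and the neurons of the adult mammalian retina do not divide.

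All values are log2 expression values made by RMA (robust multi-array average), so a difference of 1 is a 2-fold change, and changes are light damaged minus dark adapted. Array medians lay between 6.15 and 6.18. Upper quartiles differed more, from 7.41 to 7.67, and were highest on both arrays of replicate 1. Each array correlated with the others at 0.960 or more over all probe sets. Where a gene had several probe sets, the brightest on average stood for it. Genes were tested with limma over all 18193 genes, and called when the adjusted p was under 0.05. The rod, Müller glia and microglia or macrophage lists had 1 fall among 7 genes, 3 rises among 11 and 1 rise among 10, and all 8 reactive glia genes rose. Of all genes 1.74% rose and 0.269% fell. In bulk tissue, fewer cells of a type and less RNA per cell cannot be told apart.

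Of the 6 genes of growth entry, 3 rose. Ccnd1, Myc and Cdk4 rose 2.81-fold, 2.72-fold and 1.97-fold in light damaged retinas, and Ccnd2, Ccnd3 and Cdk6 did not pass the test. Neither Cdkn1b nor the cycle markers Pcna and Mki67 passed it. So 3 of the 9 measured genes rose and none fell, where 2.01% of all genes were called in either direction, 1.74% rose and 0.269% fell. With the replicate number of the titles as a block, Ccnd3 and Pcna also rose, which made 5 of 9 against 8.87% of all genes (6.73% higher and 2.13% lower). The light damaged arrays did not overlap the dark adapted ones in 6 of the 9 genes, each time with the light damaged arrays above, against 15.6% of all genes (11.9% above and 3.75% below). The genes were chosen with earlier results of these data known, so these shares describe the set and support nothing beyond it.

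**Figure D1:**
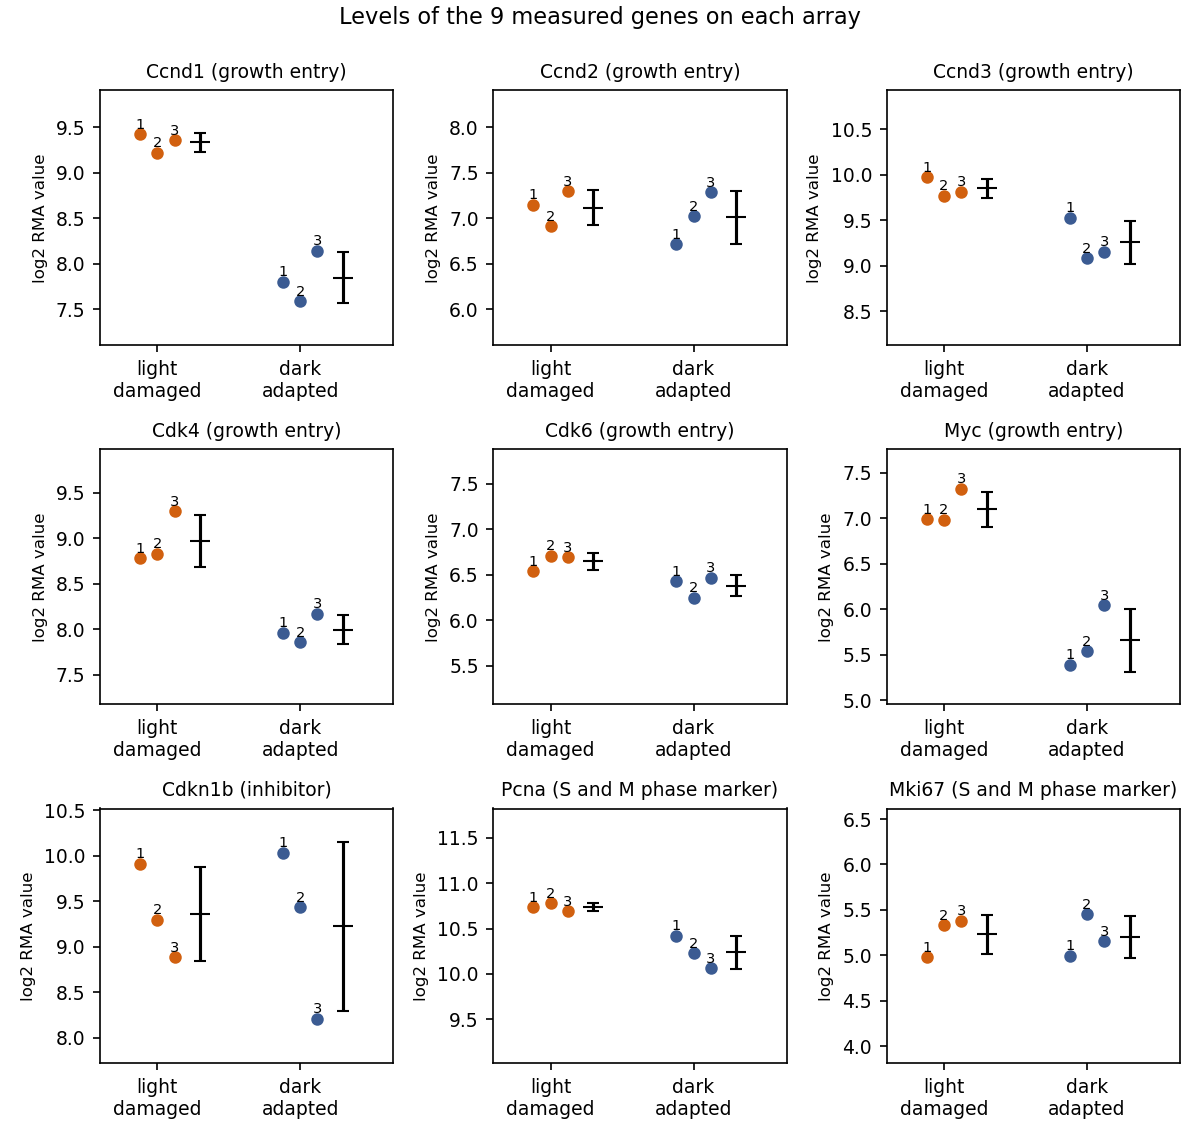
Log2 RMA values of the 9 measured genes on each array, light damaged (orange) left of dark adapted (blue), with the replicate number above each point and the mean ± SD (n = 3) beside them; every panel spans the same range of log2 units. The groups are apart for Ccnd1, Ccnd3, Cdk4, Cdk6, Myc and Pcna, and they overlap for Ccnd2, Cdkn1b and Mki67.

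Ccnd1 encodes cyclin D1. Its probe set 1448698_at read 9.42, 9.22 and 9.36 on the light damaged arrays and 7.80, 7.59 and 8.14 on the dark adapted arrays. All 3 light damaged values lay more than 1 log2 unit above the highest dark adapted one. The change was 1.49 ± 0.17 (SE; limma adjusted p = 0.00359), the 96th largest rise of all genes. Both further probe sets moved by a similar amount. Probe set 1417419_at read 7.96, 7.87 and 8.03 in light damaged and 6.30, 6.65 and 6.75 in dark adapted retinas, a change of 1.39 ± 0.15 (SE; limma adjusted p = 0.00727 over all probe sets). Probe set 1417420_at read 9.53, 9.50 and 8.56 in light damaged and 7.99, 7.82 and 7.39 in dark adapted retinas. The third replicate was the lowest of its group in both conditions on this probe set, and the change of 1.46 ± 0.28 (SE) did not pass over all probe sets (limma adjusted p = 0.0737), although it did with the replicate block (adjusted p = 0.00164). The Ccnd1 call held with each array left out (adjusted p between 0.00336 and 0.0314).

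Myc was read by 1 probe set, 1424942_a_at. It gave 6.99, 6.98 and 7.32 in light damaged and 5.39, 5.53 and 6.04 in dark adapted retinas. The groups did not overlap, and replicate 3 was the highest of its group in both conditions. The mean was 7.10 ± 0.19 in light damaged and 5.66 ± 0.34 in dark adapted retinas (SD, n = 3 each), a change of 1.44 ± 0.20 (SE; limma adjusted p = 0.00871). The call was lost without light damaged replicate 3 (adjusted p = 0.0599), while the change was then still 1.33.

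Cdk4, the kinase partner of the D cyclins, had 3 probe sets, and none overlapped between the groups. The probe set taken for the gene, 1422441_x_at, read 8.78, 8.83 and 9.30 in light damaged and 7.96, 7.85 and 8.17 in dark adapted retinas. Its change was 0.98 ± 0.17 (SE; limma adjusted p = 0.0304). By Affymetrix naming the suffix _x_at marks probes that may also bind other transcripts, so the other probe sets matter here. Probe set 1422439_a_at read 7.31, 6.84 and 7.20 in light damaged and 6.31, 5.62 and 5.88 in dark adapted retinas, a change of 1.18 ± 0.21 (SE). Probe set 1422440_at, which has no such suffix, read 7.21, 7.08 and 7.59 in light damaged and 6.49, 6.42 and 6.66 in dark adapted retinas, a change of 0.77 ± 0.16 (SE). All 3 thus moved upwards, yet over all probe sets none of them passed (limma adjusted p = 0.0548, 0.0522 and 0.0971, in the order given), and all 3 did with the replicate block (adjusted p = 0.00417, 0.00215 and 0.00962). The Cdk4 call was not firm: it was lost when light damaged replicate 1, 2 or 3 or dark adapted replicate 1 or 2 was left out (adjusted p = 0.0648, 0.0874, 0.103, 0.0566 and 0.137) and kept without dark adapted replicate 3 (0.0408).

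The letters CACGTG, the E-box to which Myc binds with its partner Max, were searched in the 250 bases before each gene's start. The promoters of the D cyclins' kinases are shown because Myc and Cdk4 both rose while Cdk6, the other kinase, did not pass. They are RefSeq sequences of the build GRCm38.p6, on the plus strand, for Cdk4 at chr10:127063285-127063534 and for Cdk6 at chr5:3343643-3343892, with the motif in capitals. CACGTG reads the same on both strands, and its copies here do not overlap.
Cdk4: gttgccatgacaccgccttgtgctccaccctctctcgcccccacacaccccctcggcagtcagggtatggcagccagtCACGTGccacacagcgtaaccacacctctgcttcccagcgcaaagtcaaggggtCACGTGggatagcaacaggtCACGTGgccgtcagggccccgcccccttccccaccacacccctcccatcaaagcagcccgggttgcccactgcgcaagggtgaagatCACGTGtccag
Cdk6: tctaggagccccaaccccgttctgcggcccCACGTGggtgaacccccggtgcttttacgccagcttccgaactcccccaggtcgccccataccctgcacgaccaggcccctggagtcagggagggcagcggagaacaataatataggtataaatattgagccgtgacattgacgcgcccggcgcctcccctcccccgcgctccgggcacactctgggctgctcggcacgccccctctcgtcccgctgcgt

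The Cdk4 window held 4 copies, whose first bases lie 172, 118, 98 and 11 bases before the start, and the Cdk6 window held 1 copy, at 220 bases. Of 32851 windows of this length in the RefSeq table, 6.02% held at least 1 copy and 7 windows held 4 or more. Of the 10 genes named, 7 matched an entry; Ccnd1, Ccnd2 and Myc did not. The windows of Ccnd3, Cdkn1b, Pcna, Mki67 and Ccnb1 held no copy. A match describes the letters in the window and is no measurement of binding.

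Among the other D cyclins, Ccnd3 (cyclin D3) came nearest to a call. Its probe set 1415907_at read 9.97, 9.77 and 9.81 in light damaged and 9.53, 9.08 and 9.16 in dark adapted retinas. The groups did not overlap, and the change was 0.60 ± 0.16 (SE), a 1.51-fold difference with limma adjusted p = 0.123 and, with the replicate block, 0.00890. Without dark adapted replicate 1 it passed as well (adjusted p = 0.0471), and with the block but without pair 2 it did not (0.0842). Averaged over the probe sets of the gene the change was 0.18 (adjusted p = 0.679). The further probe sets 1444323_at and 1438805_at gave 0.04 and -0.11, with overlapping groups, and the second was under each array's lower quartile. The rise of Ccnd3 with the block therefore holds for 1 of its 3 probe sets.

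Ccnd2 (cyclin D2) had 7 probe sets, with changes between 0.07 and 0.41, none of which passed with or without the block. With the block and without pair 3, 1430127_a_at and 1434745_at passed (limma adjusted p = 0.0122 and 0.0157). The probe set taken for the gene, 1416122_at, read 7.15, 6.91 and 7.29 in light damaged and 6.71, 7.02 and 7.29 in dark adapted retinas. Its groups overlapped, and the change was 0.11 with a 95% interval of -0.30 to 0.52, which leaves room for a fold of either direction but not for the change seen in Ccnd1. Probe set 1434745_at was the only one of the 7 whose groups were apart, with 6.16, 6.20 and 6.30 in light damaged and 5.78, 5.80 and 5.87 in dark adapted retinas. Its change was 0.41 ± 0.11 (SE; limma adjusted p = 0.236 over all probe sets and 0.0645 with the replicate block). Probe sets 1416123_at and 1416124_at lay below the lower quartile on all 6 arrays, where RMA values carry little information.

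Cdk6 did not pass, except with the block and without pair 3 (limma adjusted p = 0.0445). Its probe set 1455287_at read 6.54, 6.71 and 6.69 in light damaged and 6.43, 6.25 and 6.46 in dark adapted retinas. The groups were apart by less than 0.1 log2 units, and the change was 0.27 with a 95% interval of -0.03 to 0.56 (limma adjusted p = 0.531), or 0.039 when the arrays were centred on reference genes. Probe set 1435338_at gave 0.36 ± 0.11 (SE), again without overlap (adjusted p = 0.295 over all probe sets), and 1460291_at gave -0.11 with overlapping groups.

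**Figure D2:**
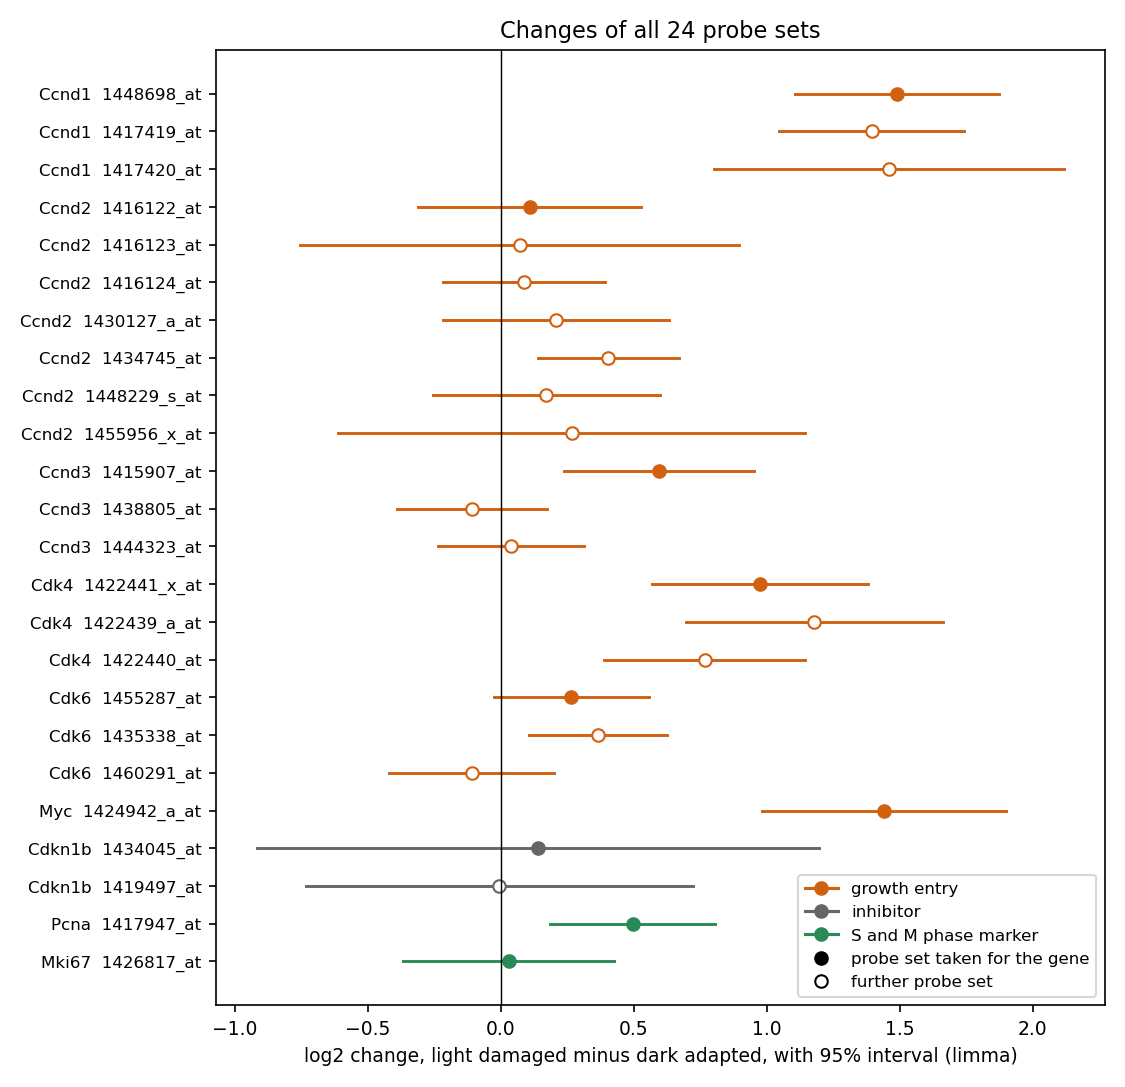
Log2 change, light damaged minus dark adapted, of all 24 probe sets with the 95% interval of the limma fit over all probe sets; filled points are the probe sets taken for their genes. The 3 probe sets of Ccnd1 lie between 1.39 and 1.49 and the 3 of Cdk4 between 0.77 and 1.18, whereas those of Ccnd3 and Cdk6 lie on both sides of 0.

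For all 24 probe sets tested in 1 fit, 3 rose (2 of Ccnd1 and that of Myc) against 1.02% called of all probe sets in either direction, and 9 with the replicate block against 4.68%. The groups did not overlap in 12 of the 24, against 13.2% of all probe sets. Probe sets of 1 gene read the same RNA and are not replicates of each other.

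The inhibitor Cdkn1b varied more between replicates than between conditions. Its probe set 1434045_at read 9.91, 9.29 and 8.88 in light damaged and 10.03, 9.43 and 8.21 in dark adapted retinas. Replicate 1 was the highest and replicate 3 the lowest in both conditions, and the dark adapted values had an SD of 0.93 on the log2 scale. The change was 0.14 with a 95% interval of -0.88 to 1.16, and of -0.22 to 0.50 with the replicate block (limma adjusted p = 0.971 and 0.674). Probe set 1419497_at gave -0.01, with 4.99, 6.05 and 5.08 in light damaged and 5.08, 5.83 and 5.23 in dark adapted retinas.

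Of the cycle markers, Pcna read 10.73, 10.78 and 10.69 in light damaged and 10.42, 10.23 and 10.06 in dark adapted retinas. The groups did not overlap, and the change was 0.50 ± 0.14 (SE), a 1.41-fold difference with limma adjusted p = 0.147 and, with the replicate block, 0.0240. Without pair 2 the block gave 0.184, which ended that call. Mki67 read 4.98, 5.33 and 5.38 in light damaged and 4.997, 5.45 and 5.16 in dark adapted retinas. These values overlapped fully and lay near the arrays' lower quartiles (4.98 to 5.11), with 2 of the 6 below them. The change was 0.03 with a 95% interval of -0.36 to 0.42 (limma adjusted p = 0.988), so at this signal a rise of the size seen in Ccnd1 lies outside the interval, while arrays can understate changes of such dim probe sets.

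The arrays of the same replicate number deviated together and were taken as pairs, although no label says so, and differences within pairs are given. For Ccnd1 these were 1.62, 1.63 and 1.21 in pairs 1, 2 and 3. For Myc they were 1.60, 1.45 and 1.28, and for Cdk4 0.82, 0.98 and 1.13. Ccnd3 gave 0.44, 0.69 and 0.66 and Pcna 0.31, 0.55 and 0.63, all positive. The pairs disagreed in sign for Ccnd2 (0.43, -0.11 and 0.01), Cdkn1b (-0.12, -0.14 and 0.68) and Mki67 (-0.02, -0.12 and 0.22).

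**Figure D3:**
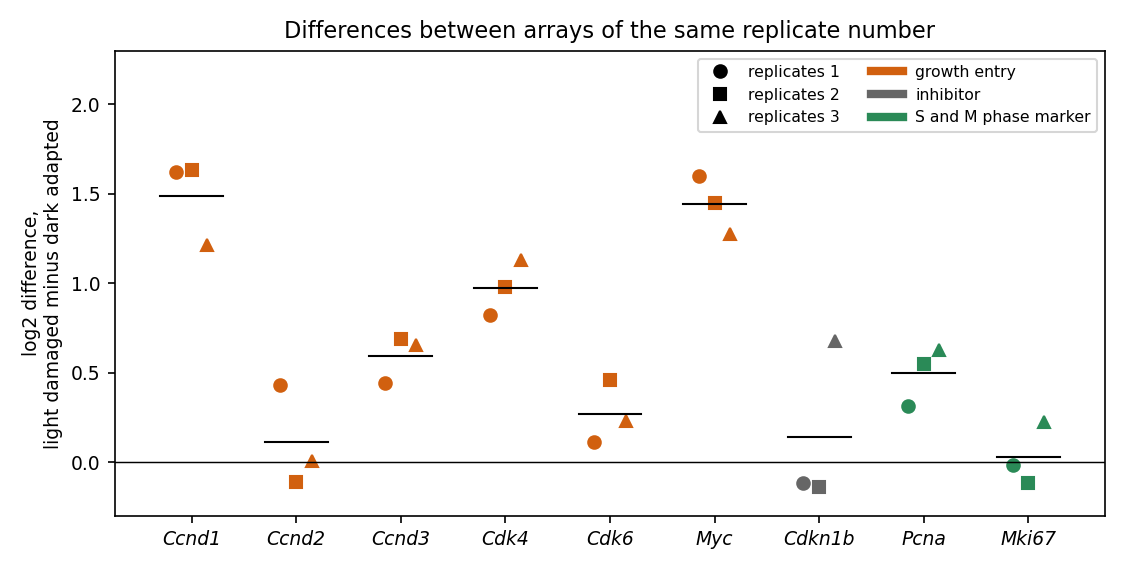
Log2 difference, light damaged minus dark adapted, between arrays of the same replicate number for the 9 measured genes; black bars are the mean changes. Ccnd1, Myc, Cdk4, Ccnd3, Cdk6 and Pcna are positive in all 3 pairs, with Ccnd1 and Myc above 1.2 in each.

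Growth entry genes were set against the cycle markers array by array, each gene relative to its mean over the dark adapted arrays. With Ccnb1 not analysed, these markers were Pcna, which also serves in repair, and the dim Mki67, and neither is particular to M phase. The mean of the 6 growth entry genes less the mean of Pcna and Mki67 was 0.65, 0.38 and 0.62 on the light damaged arrays and -0.04, -0.25 and 0.30 on the dark adapted arrays. All light damaged arrays thus stood above the dark adapted ones, and the differences within pairs 1, 2 and 3 were 0.69, 0.63 and 0.33. The growth entry genes did not move alike. Ccnd1, Myc and Cdk4 changed by 1.49, 1.44 and 0.98 and Ccnd3 by 0.60. Ccnd2 (0.11) and Cdk6 (0.27) changed less than Pcna (0.50), and Mki67 was at 0.03. The change of Ccnd1 exceeded that of Pcna by 0.99 ± 0.21 (SE; 95% interval 0.52 to 1.47) and that of Mki67 by 1.46 ± 0.24 (SE; 95% interval 0.90 to 2.02). The genes were chosen with earlier results of these data known, and Ccnd1 with its rise known. These means and intervals therefore describe the gap and test nothing.

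Further genes of the cycle, listed by function, gave few calls. Of 20 genes of S phase and replication none passed, 16 changes were positive, the groups did not overlap in 7 (15.6% of all genes) and the median was 0.20, against 0.03 over all genes, or -0.030 against -0.20 when the arrays were centred on reference genes. Mcm7, a subunit of the replicative helicase, had the smallest p of them (0.44 ± 0.14, SE; limma adjusted p = 0.244), and its other 3 probe sets gave 0.18, 0.08 and 0.14 with overlapping groups. With the replicate block 1 of the 20 rose, against 6.73% of all genes. It was Mcm4 (0.54, limma adjusted p = 0.248 without and 0.0205 with the block), named after its values were seen. Mcm7 gave an adjusted p of 0.0556 with the block. Of 20 genes of G2 and M phase none passed with or without the block, 10 changes were positive and the median was -0.0018. The smallest p among them was that of Bub1b, a kinase of the spindle checkpoint (0.51 ± 0.24, SE; limma adjusted p = 0.508). Its further probe sets 1447362_at and 1447363_s_at gave 0.05 with overlapping groups and 0.50 without overlap. Of the 20 genes, 3 lay below the lower quartile on all arrays.

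The G1 genes around the D cyclins did not pass either. None of 9 further G1 cyclins and kinases was called, with a median of 0.05 and the smallest p for Ccnh (cyclin H, of the CDK-activating kinase; 0.38, limma adjusted p = 0.533). The further Ccnh probe sets 1418585_at and 1456293_s_at gave 0.0079 and 0.48, both with overlapping groups. None of 13 RB and E2F genes was called, with a median of -0.04 and the smallest p for E2f6, a repressive E2F (0.66, adjusted p = 0.0876; with the block 0.0136), whose further probe set 1437914_at gave -0.0070 with overlapping groups. None of 7 further CDK inhibitors was called. Cdkn2b, which encodes the Cdk4 and Cdk6 inhibitor p15, had the smallest p, with 6.19, 6.25 and 6.19 in light damaged and 5.53, 5.85 and 5.46 in dark adapted retinas. These groups were apart, and the change was 0.59 ± 0.14 (SE; limma adjusted p = 0.0928, with the block 0.0107). With the block 2 of the 7 inhibitors rose, against 6.73% of all genes, Cdkn2b and Cdkn1a, the gene of p21 (0.47, adjusted p = 0.153 without and 0.0239 with the block), the second named after its values were seen.

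Among 9 genes that control the turnover of p27, Cks1b rose and the other 8 did not pass. Cks1b is the small subunit that the ubiquitin ligase of Skp2 needs to recognise p27, and it also binds cyclin-dependent kinases. It read 7.74, 7.74 and 7.90 in light damaged and 6.21, 6.09 and 6.49 in dark adapted retinas. The groups were more than 1 log2 unit apart, and the change was 1.53 ± 0.15 (SE), a 2.89-fold rise with limma adjusted p = 0.00190, which held with each array left out (at most 0.0200). Its further probe set 1448441_at gave a smaller change of 0.64 ± 0.20 (SE; adjusted p = 0.308 over all probe sets), without overlap. Skp2 itself, named after its values were seen, was at 0.05 (adjusted p = 0.972). With the block 1 of the 9 rose and 1 fell, against 6.73% higher and 2.13% lower of all genes. The gene that fell was Rnf123, a subunit of another ligase of p27 (-0.58, limma adjusted p = 0.293 without and 0.00948 with the block), named after its values were seen.

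Of 16 genes of ribosome production and growth that Myc is known to activate, 3 rose, against 1.74% of all genes, and the other 13 did not pass, while 15 changes were positive and the median was 0.55, against 0.03 over all genes. Centred on reference genes, that median was 0.32 and 1 of the 16 was called. With the replicate block 12 of the 16 rose, against 6.73% of all genes, and the groups did not overlap in 11 of the 16, against 15.6% of all genes. The one negative change was that of Ldha, a lactate dehydrogenase subunit (-0.19), named after its values were seen. Without light damaged replicate 3 only 1 of the 16 was called. Srm, the spermidine synthase, read 9.26, 9.11 and 9.30 in light damaged and 8.28, 7.91 and 7.68 in dark adapted retinas, a change of 1.27 ± 0.17 (SE; limma adjusted p = 0.00874; 0.0656 without light damaged replicate 3). Its groups did not overlap.

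Npm1 (nucleophosmin, of the nucleolus) read 10.64, 10.70 and 10.91 in light damaged and 9.72, 9.73 and 9.77 in dark adapted retinas, a change of 1.01 ± 0.13 (SE; limma adjusted p = 0.00631), and its further probe set gave 0.79. The call was lost on repeated quantile normalization (adjusted p = 0.0568) and after centring on reference genes (0.0802). Npm1 has many processed pseudogenes, and whether its probes also read their transcripts was not tested. Bop1, a ribosome assembly factor, read 8.02, 7.86 and 8.07 in light damaged and 7.43, 7.18 and 7.21 in dark adapted retinas, a change of 0.71 ± 0.13 (SE; limma adjusted p = 0.0394). This call is weak: with single arrays left out it held in 1 of 6 fits (highest adjusted p 0.183), and the further probe set 1430491_at gave -0.13. Of 11 Myc partners and relatives none passed. Mlx, a partner of Mondo and Mad proteins, had the smallest p (0.49, limma adjusted p = 0.126, and 0.0202 with the block). Its further probe set 1418437_a_at gave 0.17 with overlapping groups. The further Myc genes Mycn and Mycl, named after their values were seen, were at 0.07 and -0.44 (adjusted p = 0.945 and 0.415). Of the 16 growth genes 11 matched a promoter entry, and 4 of these 11 held CACGTG in at least 1 window, against 6.86% of all genes in the table. These 4 were Eif4e, Ldha, Nme1 and Hspd1, none of which passed without the block. Srm, Npm1 and Bop1, which rose, had no entry and were not searched, and the list was made of known Myc targets.

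**Figure D4:**
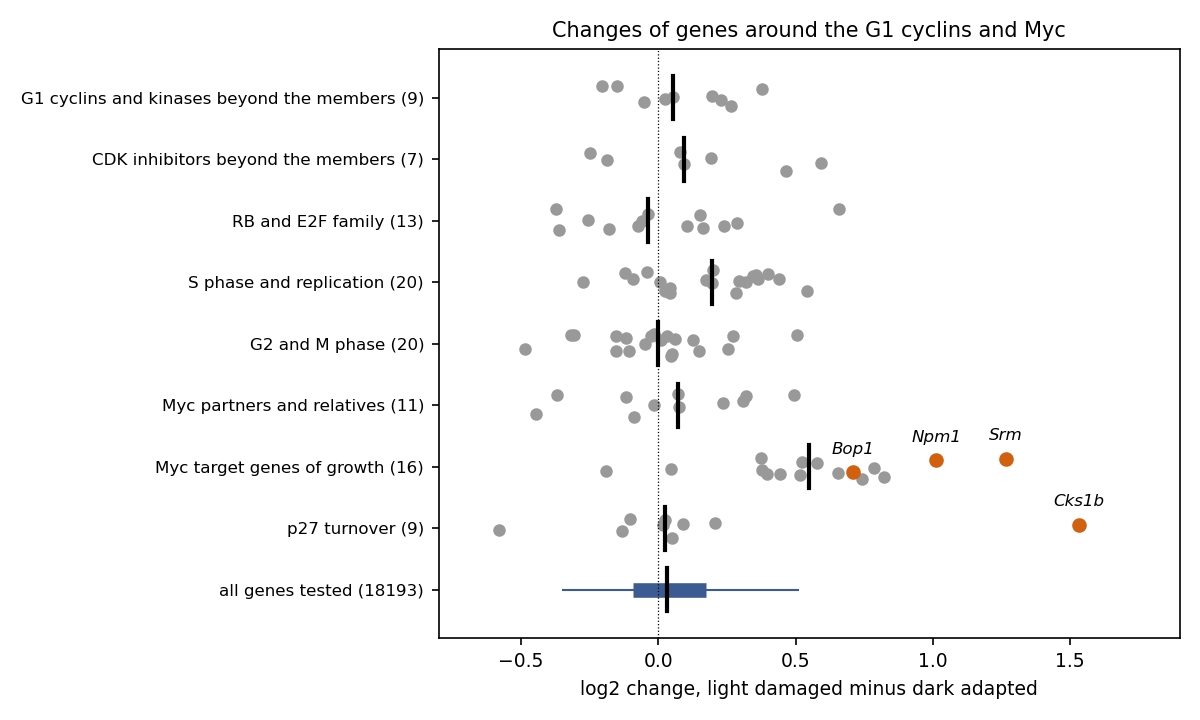
Log2 change, light damaged minus dark adapted, of the genes in 8 functional lists (number of genes in brackets); orange points passed limma's adjusted p of 0.05 and black bars are medians. The bottom row gives all 18193 genes, with the blue box from the 25th to the 75th and the line from the 5th to the 95th percentile. The Myc target genes lie to the right with a median of 0.55, Cks1b stands apart at 1.53, and the G2 and M phase genes scatter around 0.

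The genes whose profile over the 6 arrays lay nearest to that of Ccnd1, by the root mean square difference of log2 values centred on each gene's mean, were Cks1b (0.09), the glutathione transferase gene Mgst1 (0.12), the intermediate filament gene Vim (0.14), the unconventional myosin gene Myo10 (0.15) and Myc (0.16). This ranking describes 6 arrays in 2 groups, with no test. All 5 rose, Vim by 1.67 and Mgst1 and Myo10 by 1.38 and 1.26. These rises follow from the nearness to Ccnd1 and are no separate result. The further Mgst1 probe set 1415898_at gave 0.07 with overlapping groups, and the Mgst1 call was lost without light damaged replicate 3 (adjusted p = 0.0508).

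The cell type lists were chosen with earlier results of these data known, and of all genes 1.74% rose and 0.269% fell. Of these lists, only that of reactive glia had all its genes called. All 8 genes of reactive glia rose, and their summed level, in log2, was 13.29 to 13.47 in light damaged and 11.01 to 11.35 in dark adapted retinas, with Lcn2, a secreted protein of stressed glia, up by 4.16. For the 11 Müller glia genes the sums overlapped, with 13.69 to 14.03 in light damaged and 13.49 to 13.80 in dark adapted retinas, and Crym had the smallest p (2.82, limma adjusted p = 0.000795). Vim is counted both here and among the reactive glia genes. With the block 6 of the 11 Müller glia genes rose and 2 fell, against 6.73% higher and 2.13% lower of all genes. Those that fell were Glul, the glutamine synthetase gene (-0.99, adjusted p = 0.0652 without and 0.000775 with the block), and Rlbp1, a retinoid carrier gene (-0.50, 0.625 and 0.0329), both named after their values were seen. The 10 microglia and macrophage genes summed to 9.84 to 10.004 in light damaged and 9.56 to 9.84 in dark adapted retinas, with Cd68, a lysosomal protein of phagocytes, the one that rose (1.88). The microglial receptor gene P2ry12, named after its values were seen, was at -0.48 (adjusted p = 0.207) and was the one of this list that fell with the block (0.0199). The 7 rod genes summed to 14.92 to 15.24 in light damaged and 15.38 to 15.68 in dark adapted retinas, and Nrl, the rod transcription factor, fell (-1.04, limma adjusted p = 0.0378). None of 8 endothelial and mural, 7 pigment epithelium and 6 blood genes passed, although the endothelial sums did not overlap, with 11.32 to 11.36 in light damaged and 10.97 to 11.21 in dark adapted retinas. The smallest p in these lists was that of Kdr (0.44, limma adjusted p = 0.191), Ttr (0.99, 0.274) and Alas2 (-0.26, 0.786). The haemoglobin gene Hba-a1 and the neutrophil gene S100a8 lay below the lower quartile on all 6 arrays, and were named after their values were seen. The part of any cell type in the changes of Ccnd1, Myc, Cdk4 and Cks1b was not tested.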

How the data were processed

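RNA was measured on 6 one-colour Affymetrix arrays, grouped by their titles. The deposited log2 values were made by the authors with RMA, per the submitters' processing notes. RMA corrects background, normalizes arrays by quantiles and summarises probe sets. No version of it was given. The log2 scale was judged from the range, 3.30 to 13.89. Arrays give no read depth; their number limits the precision.

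From the deposited values, 64 control probe sets were left out. GEO's platform annotation gave 34945 probe sets 1 gene, 932 several and 9160 none. The comparison used lmFit and eBayes of limma 3.58.1 (R 4.3.3), and p-values were adjusted by Benjamini-Hochberg over all 18193 genes (the brightest probe set each) or, for single probe sets, over all 45037. The fit was checked on simulated data in which the arrays varied independently, so arrays that deviate together in pairs were not covered. Promoters came from RefSeq tables of GRCm38.p6. The members and gene lists were chosen with earlier results of these data known. Genes were named by rule: all members; per functional list up to 3 genes with the largest change past the threshold, or else the smallest p; per cell type list the smallest p; and the 5 nearest to Ccnd1. Others are marked as named after their values were seen.

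Titles number both groups 1 to 3. Deviations from group means correlated at 0.731, 0.618 and 0.432 between arrays of the same number and at -0.480 to 0.00902 otherwise, so the numbers were taken as pairs. No label states a pairing, and it was inferred from these same values. Deviations within a group sum to 0, so positive correlations at the same number lower the others. Alternatives were the replicate block, repeated quantile normalization, centring on 5 reference genes (Actb, Hprt, Tbp, Sdha and Ywhaz), the mean of probe sets, probe sets without suffix, a level filter, a variance trend and leaving out each array, plus leaving out each pair under the block, which was added after seeing the data.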

Additional observations from a re-analysis of the deposited data

How the results depend on the processing

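Under the 16 alternatives Ccnd1, Myc, Cdk4, Ccnd3, Cdk6 and Pcna kept a positive change wherever they were measured, although Ccnd3 was at 0.18 with the mean of probe sets and Cdk6 at 0.039 after centring. Genes past the threshold numbered 365 (316 higher, 49 lower), of which 3 were cycle genes of the set, and 3 of its probe sets passed. With the replicate block there were 1613 (1225 higher, 388 lower), 5 genes and 9 probe sets, and Ccnd3 and Pcna were the genes gained. With the block and 1 pair left out there were 1075 to 3166 (737 to 1966 higher, 338 to 1200 lower), 3 to 6 genes and 7 to 12 probe sets, and Ccnd3 and Pcna were the calls lost without pair 2 (adjusted p = 0.0842 and 0.184). Without pair 3 Cdk6 was gained (0.29, adjusted p = 0.0445). Its probe set 1435338_at (0.0260) and the Ccnd2 probe sets 1430127_a_at (0.0122) and 1434745_at (0.0157) were gained as well. With 1 array left out there were 151 to 417 (141 to 384 higher, 9 to 82 lower), 1 to 3 genes and 1 to 4 probe sets. Only Ccnd1 was called without light damaged replicate 3. Repeated quantile normalization gave 325 higher and 161 lower, 2 genes (without Cdk4, adjusted p = 0.0983) and 4 probe sets. The mean of probe sets gave 394 genes and a variance trend 330, each with Ccnd1, Myc and Cdk4. Probe sets without suffix gave 271 genes and only Ccnd1, as Myc has no such probe set and that of Cdk4 gave adjusted p = 0.0719. Genes above the median level gave 377, 2 genes (Myc lies below that level) and 6 probe sets. The 5 reference genes themselves changed by 0.23 on average, 4 of them upwards. Actb was at 0.70 (limma adjusted p = 0.0910 without and 0.0112 with the block). Centring on these genes moved the median change of all genes to -0.20 from 0.03 and gave 141 higher and 139 lower. Ccnd1 alone then passed (1.26), with 1 probe set, Myc at 1.21 (adjusted p = 0.0698) and Cdk4 at 0.75 (0.196).

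Signs turned only for changes that the main fit had not called. After centring these were Ccnd2 (-0.12, and -0.16, -0.14, -0.019 and -0.056 on its probe sets 1416123_at, 1416124_at, 1430127_a_at and 1448229_s_at), Cdkn1b (-0.088), Mki67 (-0.20) and Ccnd3 probe set 1444323_at (-0.19). After repeated normalization that Ccnd3 probe set was at -0.011 and Cdkn1b probe set 1419497_at at 0.033. With an array or pair left out, ranges that crossed 0 were those of Ccnd2 (-0.052 to 0.25), its probe sets 1416123_at (-0.25 to 0.39), 1448229_s_at (-0.0020 to 0.28) and 1455956_x_at (-0.11 to 0.58), Ccnd3 probe set 1444323_at (-0.015 to 0.11), Cdkn1b (-0.37 to 0.54), its probe set 1419497_at (-0.34 to 0.22) and Mki67 (-0.072 to 0.16). The causes were not tested. Dim probe sets, such as that of Mki67, limit what these arrays can show of rare dividing cells.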
